A study of Homo sapiens with 6 samples.

Results

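Heat shock proteins, DNAJ proteins and chaperonins are the machinery that folds and refolds other proteins. The set described here holds every protein-coding gene whose symbol falls into the HSP90, HSPA, HSPB, HSPD1, HSPE1, HSPH1, DNAJA, DNAJB, DNAJC, CCT or TCP1 series, plus the heat shock factor HSF2. By that rule 82 of the 34371 rows of the gene table were members. The rule also covers HSF1, DNAJC8 and DNAJC18, which were not analysed here. No measured value entered the rule, but the set was chosen with earlier results of these data known. The members comprise 3 HSP90 genes, 15 HSP70 and HSP110 genes, 8 small heat shock proteins, the 2 genes of the mitochondrial chaperonin, 10 genes with CCT symbols or TCP1, 4 DNAJA, 12 DNAJB and 27 DNAJC genes, and HSF2.

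The cells were ME-1, an acute myeloid leukaemia line established from a patient with the inversion of chromosome 16 that fuses CBFB to MYH11. One group of 3 libraries (SPNS2) came from ME-1 cells transduced with a vector for overexpression of SPNS2, a membrane transporter that exports sphingosine 1-phosphate. The other 3 libraries (empty vector) came from ME-1 cells that received the control vector without the insert. All cells of both groups had been infected and then selected, so both carry a vector, and neither is the untransduced line. The labels give neither the promoter that drives the insert, nor the time after selection, nor whether the 3 libraries of a group came from separate infections or cultures, so p-values reflect the scatter among these libraries alone, which can be technical.

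Chaperones bind unfolded stretches of other proteins and release them through cycles of ATP binding and hydrolysis. HSP70 proteins take short hydrophobic stretches delivered by J-domain proteins (the DNAJ genes), HSP90 proteins act later on kinases, hormone receptors and other signalling proteins, and the ring-shaped chaperonins enclose a whole chain. In the cytosol, many of these genes are switched on together by heat shock factors, while the endoplasmic reticulum and the mitochondria have their own members and their own stress responses. Fast-dividing leukaemia cells carry high amounts of the constitutive members.

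Library totals ran from 28605187 to 38489992 counts. The insert, listed as a separate row, gave 25283, 24792 and 25752 counts in the SPNS2 libraries, against 9, 3 and 0 in the empty vector libraries, so the libraries carry the vector their labels give. The cells' own SPNS2 row gave 50.5 ± 1.80 CPM with SPNS2 and 42.6 ± 1.92 CPM with the empty vector (SD, n = 3 each). Levels below are in CPM (the count of a gene set against its library's total after TMM adjustment). Of the 11 myeloid and ME-1 markers, 10 stood at or above 1 CPM. Their summed level, 28135 to 29619 CPM in SPNS2 libraries and 28246 to 28702 CPM in empty vector libraries, was mostly MPO, and single markers moved beneath it. KIT, a growth factor receptor, rose, with 2286 ± 38.6 CPM with SPNS2 and 1566 ± 21.4 CPM with the empty vector (SD, n = 3 each, edgeR adjusted p = 3.68e-08), and so did PTPRC, with 100.04 ± 1.77 CPM with SPNS2 and 83.6 ± 4.08 CPM with the empty vector (edgeR adjusted p = 0.000560), and RUNX1, at a log2 fold change of 0.13 (edgeR adjusted p = 0.00571). CD33 fell, with 22.9 ± 1.118 CPM with SPNS2 and 37.4 ± 0.0937 CPM with the empty vector (edgeR adjusted p = 2.45e-06), and so did CD34, with 101 ± 4.03 CPM with SPNS2 and 120 ± 1.24 CPM with the empty vector (edgeR adjusted p = 0.000397). CBFB, MPO, ANPEP, SPI1 and CEBPA did not pass. The marker below 1 CPM was MYH11, the fusion partner of CBFB, at 0.22 CPM with SPNS2 and 0.18 CPM with the empty vector. Its row thus shows little sign of the fusion, and where reads of a fusion transcript were counted was not tested. Summed T cell, erythroid and fibroblast markers stayed at or below 1.08 CPM in all libraries. B cell markers summed to 7.37 to 7.65 CPM with SPNS2 and 6.53 to 7.32 CPM with the empty vector, and epithelial markers, nearly all EPCAM, to 141 to 144 CPM with SPNS2 and 119 to 128 CPM with the empty vector. The chaperone changes below came from the same libraries as these marker changes, and the part of the markers in them was not tested.

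With SPNS2, the summed level of the chaperones differed by -7.19% in the cytosol and nucleus and by -9.35% in the mitochondria. The mitochondrial sum was mostly HSPD1, HSPA9 and HSPE1, and the other 5 tested members there did not pass. Meanwhile 5 J-domain genes and CCT6B were higher, of which only DNAJC3 averaged more than 50 CPM. The threshold for a call was an adjusted p under 0.05 in the edgeR quasi-likelihood test, with the Benjamini-Hochberg adjustment made over all 13308 features tested. Of the 64 members tested, 22 fell and 6 rose, and 36 did not pass. Over all features tested, 24.5% were called, 12.6% lower and 11.9% higher, while the members' shares were 34.4% lower and 9.38% higher. The median log2 fold change (SPNS2 over empty vector) was -0.06 over the tested members and 0.003 over all features tested. In 34 members all 3 SPNS2 libraries lay below all 3 empty vector libraries, and in 11 members all lay above. Over all features tested, the groups stood apart in 40.1%, with SPNS2 below in 20.3% and above in 19.8%. Together the members took up 1.26% of all counts with SPNS2 and 1.35% with the empty vector. Summed over the members, the level was 12633 ± 28.0 CPM with SPNS2 and 13463 ± 70.9 CPM with the empty vector (SD, n = 3 each). Without SPNS2 replicate 3, 3 members were called higher, and the DESeq2 test also called 3 higher. In bulk RNA, fewer cells of a type and less RNA per cell cannot be told apart.

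**Figure D1:**
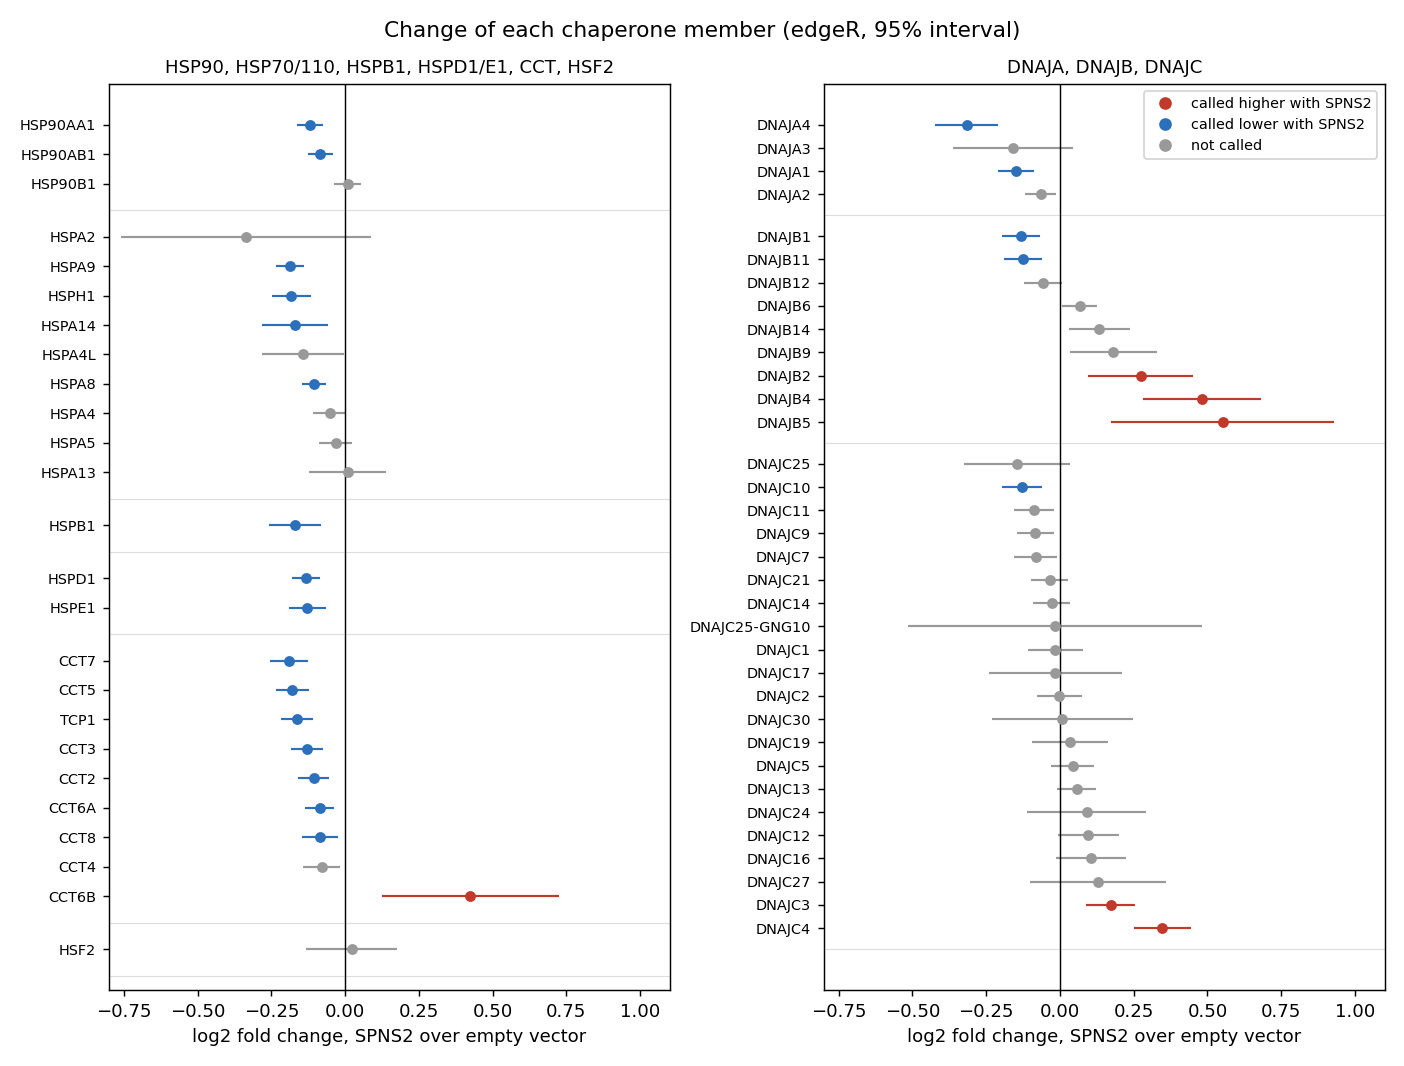
Log2 fold change (x axis, SPNS2 over empty vector) of the 59 tested members with a mean level of at least 1 CPM, one row per gene, grouped by class. Points are edgeR estimates from 3 SPNS2 and 3 empty vector libraries, bars are 95% intervals, and colours mark the call at an adjusted p under 0.05. Most HSP90, HSP70 and CCT genes sit left of 0, while the J-domain genes spread to both sides.

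HSP90 proteins fold signalling proteins, and the cytosol uses a pair of them while the endoplasmic reticulum has its own. HSP90AA1, the stress-inducible cytosolic form, stood at 1045, 1044 and 1035 CPM in SPNS2 libraries, against 1121, 1143 and 1129 CPM in empty vector libraries. HSP90AB1, the constitutive cytosolic form, stood at 1625, 1662 and 1648 CPM with SPNS2, against 1749, 1746 and 1733 CPM with the empty vector. For each gene, every SPNS2 library lay below every empty vector library. Both fell, HSP90AA1 with a log2 fold change of -0.12 ± 0.0199 (SE, edgeR adjusted p = 0.00145) and HSP90AB1 with -0.08 ± 0.0189 (edgeR adjusted p = 0.00852). HSP90B1, the endoplasmic reticulum form also called GRP94, stood at 971.6, 978.6 and 975.5 CPM with SPNS2, against 954.5, 983.8 and 967.7 CPM with the empty vector. Its groups overlapped, and its log2 fold change was 0.01, with a 95% interval of -0.04 to 0.06. Levels were also set per kilobase of the longest annotated coding transcript. HSP90AB1 was the most abundant HSP90 gene, at 615 CPM per kb with SPNS2 and 652 CPM per kb with the empty vector. HSP90B1 followed at 341 CPM per kb with SPNS2 and 339 CPM per kb with the empty vector. HSP90AA1 came last at 297 CPM per kb with SPNS2 and 322 CPM per kb with the empty vector. In CPM without that division HSP90AA1 lay above HSP90B1, and which transcripts the cells used was not tested.

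HSP70 proteins are the central ATP-driven holders of unfolded chains, and HSP110 proteins are their relatives that act as nucleotide exchange factors. Of the 15 genes of this class, 11 were tested and 4 of them fell (36.4%), beside 12.6% lower among all features tested. HSPA8, the constitutive cytosolic HSP70, stood at 1353, 1342 and 1337 CPM with SPNS2, against 1439, 1452 and 1448 CPM with the empty vector, a log2 fold change of -0.11 ± 0.0188 (SE, edgeR adjusted p = 0.00213). HSPA9, the mitochondrial HSP70 known as mortalin, stood at 444.1, 439.9 and 433.2 CPM with SPNS2, against 496.6, 502.4 and 500 CPM with the empty vector. Its log2 fold change was -0.19 ± 0.0223 (SE, edgeR adjusted p = 0.000185), the smallest adjusted p of all members. The SPNS2 and empty vector libraries did not overlap for either gene, and for both the gap between the groups was wider than the range within either.

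HSPH1, the main HSP110, stood at 86.66, 83.28 and 85.09 CPM with SPNS2, against 98.21, 96.21 and 94.9 CPM with the empty vector (log2 fold change -0.18 ± 0.0301 SE, edgeR adjusted p = 0.00136). HSPA14, an HSP70 bound to ribosomes, stood at 24.18, 22.25 and 24.52 CPM with SPNS2, against 25.82, 26.65 and 27.39 CPM with the empty vector (log2 fold change -0.17 ± 0.0510 SE, edgeR adjusted p = 0.0325). Both fell, with no overlap between the groups, but the HSPA14 call was lost with DESeq2 (adjusted p = 0.0758), without SPNS2 replicates 1 and 2 in turn (edgeR adjusted p = 0.0629 and 0.116) and without empty vector replicates 2 and 3 in turn (edgeR adjusted p = 0.0607 and 0.102). HSPA4, another HSP110 relative, stood at 154.9, 156.8 and 152.7 CPM with SPNS2, against 160.6, 159.3 and 161.6 CPM with the empty vector, and did not pass at a log2 fold change of -0.05 (edgeR adjusted p = 0.173), although its groups did not overlap. HSPA4L had 15.57, 14.51 and 15.8 CPM with SPNS2, against 16.33, 18.26 and 16.16 CPM with the empty vector, and did not pass either (log2 fold change -0.14, edgeR adjusted p = 0.13).

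HSPA5, the endoplasmic reticulum HSP70 known as BiP, had 678.4, 708.1 and 715.6 CPM with SPNS2, against 710.3, 728.6 and 710.4 CPM with the empty vector. Its groups overlapped, and the log2 fold change was -0.03 with a 95% interval of -0.09 to 0.02. HSPA13, another HSP70 of the microsomes, had 38.46, 36.82 and 34.75 CPM with SPNS2, against 33.81, 39.85 and 36.02 CPM with the empty vector, and its groups overlapped at a log2 fold change of 0.01. Both endoplasmic reticulum HSP70 genes thus stayed inside the spread of the libraries. HSPA2, best known from the testis, was scarce at 1.234, 1.305 and 1.393 CPM with SPNS2, against 1.996, 1.615 and 1.334 CPM with the empty vector (log2 fold change -0.34, edgeR adjusted p = 0.238). HSPA12A, a distant relative, had 0.5551, 0.8593 and 0.6819 CPM with SPNS2, against 0.7519, 0.4565 and 0.6825 CPM with the empty vector, and overlapped.

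HSPA6, a strictly inducible HSP70, was scarce and lay higher with SPNS2 without passing the test. It had 29, 45 and 39 counts (0.8943, 1.432 and 1.156 CPM) in SPNS2 libraries, against 24, 19 and 27 counts (0.6222, 0.6671 and 0.8376 CPM) in empty vector libraries. The groups did not overlap, at a log2 fold change of 0.71 ± 0.249 (SE, edgeR adjusted p = 0.0596), and without SPNS2 replicate 1 the value was 0.87 (edgeR adjusted p = 0.0448). Its near-identical neighbour, the pseudogene HSPA7, rose, with 6.48 ± 0.113 CPM with SPNS2 and 5.30 ± 0.214 CPM with the empty vector (SD, n = 3 each, log2 fold change 0.29, edgeR adjusted p = 0.0364). Reads of this pair may be divided between the copies, so the HSPA6 level is uncertain.

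The major stress-inducible genes HSPA1A and HSPA1B, and HSPA1L beside them, were listed at 0 in all 6 libraries. They lie in the major histocompatibility region of chromosome 6, where the stretch from HLA-F to HLA-DPB1 had 40 of 119 protein-coding rows at 0 in all libraries (33.6%), against 3411 of 19305 protein-coding rows elsewhere (17.7%). Among those at 0 were DDX39B, EHMT2, PPP1R11 and GTF2H4, genes that nearly every cell uses. No level of HSPA1A, HSPA1B or HSPA1L is therefore read from this table.

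Heat shock factors bind repeats of the unit GAA and its reverse complement TTC, each unit facing the next. Promoter windows of 250 bases before to 50 bases after the start, taken from RefSeq (GRCh38.p14), were found for 73 of the 82 members. A run of 3 units (GAA, TTC and GAA, or TTC, GAA and TTC, with 2 free bases between neighbours), searched on both strands, occurred in 4 of the 73 windows (5.48%) and in 133 of all 27305 RefSeq windows of that length (0.487%). The windows that held it were those of HSPA8 and DNAJA1, which fell, and of HSPA6 and DNAJB6, which lay higher without passing. They are shown because they carry the motif that names the family's regulator, with the 2-unit and overlapping 3-unit matches (GAANNTTC or TTCNNGAA, each of which reads the same on both strands) in capitals. HSPA8 lies at chr11:123062087-123062386 on the minus strand, DNAJA1 at chr9:33025023-33025322, HSPA6 at chr1:161524290-161524589 and DNAJB6 at chr7:157336754-157337053, all 3 on the plus strand.
HSPA8: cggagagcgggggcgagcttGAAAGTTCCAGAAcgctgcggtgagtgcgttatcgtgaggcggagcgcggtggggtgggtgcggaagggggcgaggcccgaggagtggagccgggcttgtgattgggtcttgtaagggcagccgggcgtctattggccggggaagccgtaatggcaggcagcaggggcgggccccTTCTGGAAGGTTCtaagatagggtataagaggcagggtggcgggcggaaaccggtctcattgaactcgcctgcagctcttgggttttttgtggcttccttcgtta
DNAJA1: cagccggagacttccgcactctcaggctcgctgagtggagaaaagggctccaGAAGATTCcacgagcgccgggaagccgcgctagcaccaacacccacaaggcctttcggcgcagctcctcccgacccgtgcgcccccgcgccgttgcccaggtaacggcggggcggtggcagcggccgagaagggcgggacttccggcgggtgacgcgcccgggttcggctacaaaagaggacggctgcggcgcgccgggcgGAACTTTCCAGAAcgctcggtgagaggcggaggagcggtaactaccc
HSPA6: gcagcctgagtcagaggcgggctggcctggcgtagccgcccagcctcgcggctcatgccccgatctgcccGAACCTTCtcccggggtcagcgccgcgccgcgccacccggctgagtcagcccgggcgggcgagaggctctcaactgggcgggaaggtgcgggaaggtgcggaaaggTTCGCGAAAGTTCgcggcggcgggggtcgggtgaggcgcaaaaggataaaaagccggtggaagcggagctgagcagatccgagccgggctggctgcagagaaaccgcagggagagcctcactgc
DNAJB6: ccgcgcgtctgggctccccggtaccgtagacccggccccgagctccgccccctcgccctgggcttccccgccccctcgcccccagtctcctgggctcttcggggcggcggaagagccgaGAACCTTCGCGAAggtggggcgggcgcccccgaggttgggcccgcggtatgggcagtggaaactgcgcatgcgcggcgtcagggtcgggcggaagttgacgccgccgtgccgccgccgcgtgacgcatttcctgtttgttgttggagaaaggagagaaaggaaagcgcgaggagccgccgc
The shorter run of 2 units was found in 17 of the 73 member windows (23.3%) and in 3738 of all 27305 (13.7%). Among the 60 tested members with a window it was found in 9 (15%), near the 13.7% of all windows. These were 5 of 20 that fell, 1 of 6 that rose and 3 of 34 that did not pass. A link between the run and the calls was not tested. A match is a run of letters and says nothing of binding.

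A different run of letters, the endoplasmic reticulum stress element (CCAAT, 9 free bases, CCACG), searched on both strands, occurred in 2 member windows and in 22 of all 27305 windows (0.0806%). The windows were those of HSPA5 (chr9:125241294-125241593, minus strand) and HSP90B1 (chr12:103930160-103930459, plus strand), the most abundant members of the endoplasmic reticulum, neither of which passed the test. They are shown for the contrast with the cytosolic windows, with the element in capitals. In HSP90B1 one of its 2 copies reads on the opposite strand.
HSPA5: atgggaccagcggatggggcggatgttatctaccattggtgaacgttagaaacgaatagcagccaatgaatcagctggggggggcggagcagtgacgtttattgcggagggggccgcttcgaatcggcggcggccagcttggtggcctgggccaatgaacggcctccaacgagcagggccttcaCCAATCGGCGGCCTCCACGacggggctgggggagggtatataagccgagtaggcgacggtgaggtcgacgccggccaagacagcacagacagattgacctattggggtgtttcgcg
HSP90B1: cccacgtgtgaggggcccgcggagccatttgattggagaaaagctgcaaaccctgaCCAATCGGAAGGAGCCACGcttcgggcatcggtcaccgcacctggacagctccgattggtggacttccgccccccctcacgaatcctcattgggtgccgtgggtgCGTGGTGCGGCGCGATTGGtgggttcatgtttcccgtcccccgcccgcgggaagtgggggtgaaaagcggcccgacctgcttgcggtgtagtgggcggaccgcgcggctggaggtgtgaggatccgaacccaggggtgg

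Ratios of gene pairs within each library do not depend on library scaling. The pairs were picked after the values had been seen, so the ratios restate the levels above and carry no test. The ratio of HSP90AA1 to HSP90B1 was 1.08, 1.07 and 1.06 with SPNS2, against 1.17, 1.16 and 1.17 with the empty vector. For HSP90AB1 over HSP90B1 it was 1.67, 1.70 and 1.69 with SPNS2, against 1.83, 1.77 and 1.79 with the empty vector. The mitochondrial HSPA9 over HSPA5 gave 0.655, 0.621 and 0.605 with SPNS2, against 0.699, 0.690 and 0.704 with the empty vector. None of these 3 ratios overlapped between the groups, and all were lower with SPNS2. The ratio of HSPA8 to HSPA5 was 1.99, 1.90 and 1.87 with SPNS2, against 2.03, 1.99 and 2.04 with the empty vector, and its groups overlapped narrowly.

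**Figure D2:**
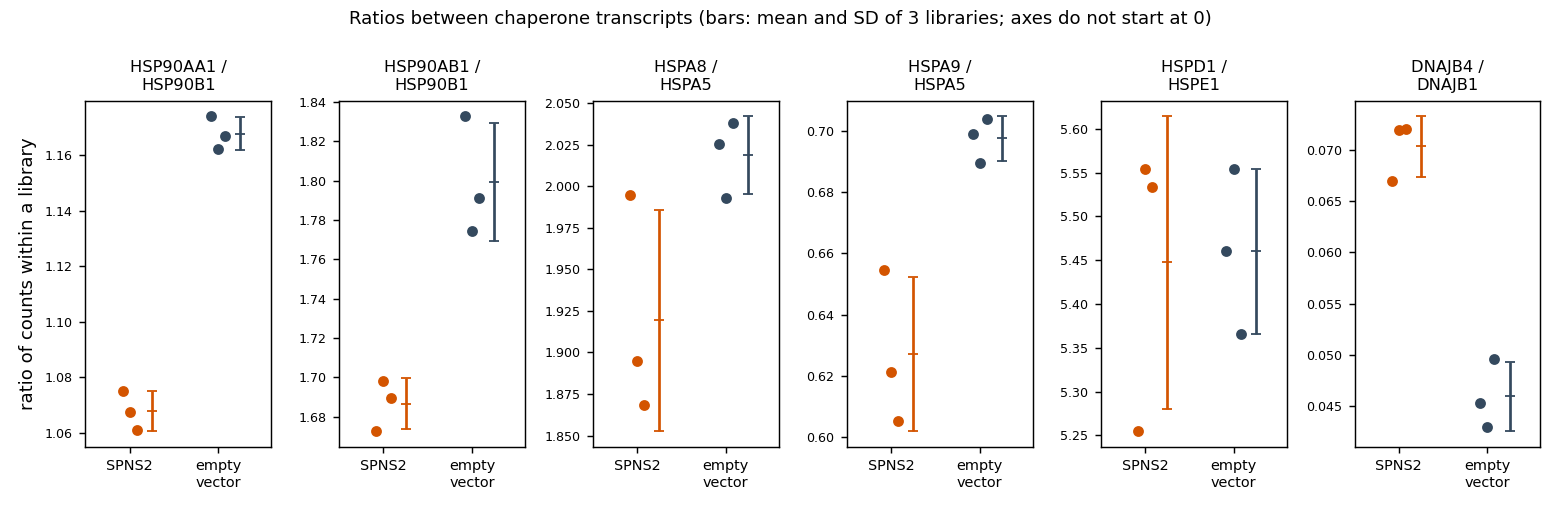
Ratio of the counts of 2 chaperone genes within each library (y axis, no unit, axes not starting at 0), one panel per pair, with the 3 SPNS2 libraries left and the 3 empty vector libraries right. Points are libraries, and bars give the mean and SD of 3. The ratio of DNAJB4 to DNAJB1 lies higher with SPNS2, those of HSP90AA1 and HSP90AB1 to HSP90B1 and of HSPA9 to HSPA5 lie lower, and those of HSPD1 to HSPE1 and of HSPA8 to HSPA5 overlap.

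Small heat shock proteins hold unfolded chains without using ATP. HSPB1, also called HSP27, was the single member of this class that could be tested. It stood at 304.4, 308 and 293.5 CPM with SPNS2, against 317.1, 344.8 and 357.3 CPM with the empty vector, and fell by 0.17 ± 0.0399 on the log2 scale (SE, edgeR adjusted p = 0.0102). The empty vector libraries spread more than the SPNS2 libraries, and the groups did not overlap. Without SPNS2 replicate 3 its edgeR adjusted p was 0.0507.

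The mitochondrial chaperonin is built of HSPD1 (HSP60), the barrel, and HSPE1 (HSP10), its lid. HSPD1 stood at 831.9, 831.6 and 850.7 CPM with SPNS2, against 907.6, 931.4 and 915.9 CPM with the empty vector (log2 fold change -0.13 ± 0.0217 SE, edgeR adjusted p = 0.00132). HSPE1 stood at 158.3, 149.7 and 153.7 CPM with SPNS2, against 166.2, 167.7 and 170.7 CPM with the empty vector (log2 fold change -0.13 ± 0.0290 SE, edgeR adjusted p = 0.00848). Barrel and lid both fell, by nearly the same proportion. Their ratio was 5.26, 5.55 and 5.53 with SPNS2, against 5.46, 5.55 and 5.37 with the empty vector, and overlapped. Part of the HSPE1 sequence is shared with the readthrough gene HSPE1-MOB4, which averaged 4.996 CPM with SPNS2 and 4.641 CPM with the empty vector.

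The genes for barrel and lid lie head to head and are read from opposite strands. Their RefSeq windows (GRCh38.p14), chr2:197500129-197500428 on the plus strand for HSPE1 and chr2:197500225-197500524 on the minus strand for HSPD1, share 204 bases. The HSPE1 window is shown because it holds the stretch that both windows share, with the shared bases in capitals, read on the plus strand. The part of this stretch in the fall of either gene was not tested.
HSPE1: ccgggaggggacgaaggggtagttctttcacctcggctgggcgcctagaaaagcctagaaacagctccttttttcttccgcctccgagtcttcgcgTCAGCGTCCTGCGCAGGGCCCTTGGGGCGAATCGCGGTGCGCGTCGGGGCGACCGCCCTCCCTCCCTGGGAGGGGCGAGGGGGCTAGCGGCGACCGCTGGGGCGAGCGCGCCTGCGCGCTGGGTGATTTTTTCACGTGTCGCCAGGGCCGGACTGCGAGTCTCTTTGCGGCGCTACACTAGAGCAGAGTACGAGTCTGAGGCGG

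**Figure D3:**
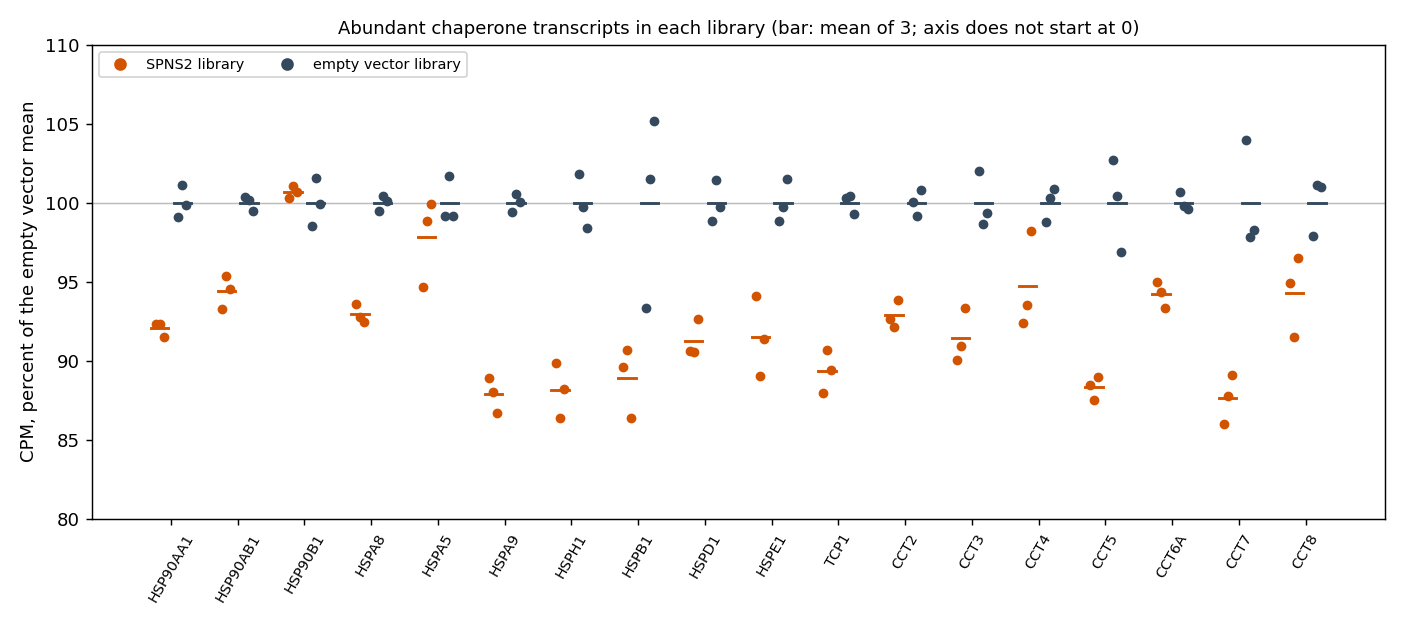
Level of abundant members in each library as a percent of the gene's empty vector mean (y axis, CPM, not starting at 0), with the 3 SPNS2 libraries (orange) left of the 3 empty vector libraries (dark blue) for each gene. Points are libraries and short bars are group means. All SPNS2 libraries lie below all empty vector libraries for every gene drawn except HSP90B1 and HSPA5, where the groups overlap.

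The cytosolic chaperonin CCT (also called TRiC) is a double ring of 8 different subunits that folds actin, tubulin and other proteins. All 8 subunits expressed above 100 CPM had SPNS2 libraries below every empty vector library, and 7 of them fell. Over all features tested, SPNS2 lay below in 20.3% and 12.6% were called lower. Most of those features are scarcer than these subunits. Among the 3917 with a mean of at least 50 CPM, SPNS2 lay below in 1256 and 22.6% were called lower. CCT7 stood at 308.2, 314.4 and 319.2 CPM with SPNS2, against 372.3, 350.4 and 352 CPM with the empty vector (log2 fold change -0.19 ± 0.0293 SE, edgeR adjusted p = 0.000868). CCT5 stood at 563.2, 557.4 and 566.4 CPM with SPNS2, against 653.8, 639.3 and 617.1 CPM with the empty vector (log2 fold change -0.18, edgeR adjusted p = 0.000547). TCP1, the alpha subunit, stood at 227.8, 234.9 and 231.7 CPM with SPNS2, against 259.8, 260.1 and 257.2 CPM with the empty vector (log2 fold change -0.16, edgeR adjusted p = 0.000789). These 3 had the largest differences of the 8.

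Smaller differences were seen in the other subunits of the ring. CCT3 had 433.8, 438.2 and 449.9 CPM with SPNS2, against 491.7, 475.3 and 478.7 CPM with the empty vector (log2 fold change -0.13, edgeR adjusted p = 0.00341). CCT2 had 208.7, 207.5 and 211.4 CPM with SPNS2, against 225.3, 223.3 and 227.1 CPM with the empty vector (log2 fold change -0.11, edgeR adjusted p = 0.00861). Both fell, with a gap between the groups wider than the spread inside either. CCT6A had 422.6, 420 and 415.4 CPM with SPNS2, against 447.9, 444 and 443.2 CPM with the empty vector (log2 fold change -0.09, edgeR adjusted p = 0.0157). CCT8 had 259.8, 250.4 and 264.2 CPM with SPNS2, against 267.9, 276.8 and 276.5 CPM with the empty vector (log2 fold change -0.08, edgeR adjusted p = 0.0492). These calls were less firm. That of CCT6A was lost without SPNS2 replicate 3 (edgeR adjusted p = 0.0540). That of CCT8 was lost with the replicate number as a block (edgeR adjusted p = 0.0874). It was also lost without SPNS2 replicates 1, 2 and 3 in turn (edgeR adjusted p = 0.104, 0.179 and 0.0510). The same held without empty vector replicates 2 and 3 in turn (edgeR adjusted p = 0.142 and 0.139). CCT4 had 237.6, 240.6 and 252.6 CPM with SPNS2, against 254.2, 258.1 and 259.5 CPM with the empty vector, and did not pass (log2 fold change -0.08, 95% interval -0.14 to -0.02, edgeR adjusted p = 0.0689), but passed without SPNS2 replicate 3 (edgeR adjusted p = 0.0274). The pseudogenes CCT6P1 and CCT6P3, close copies of CCT6A, averaged 6.17 and 11.8 CPM with SPNS2 and 6.61 and 11.0 CPM with the empty vector, and neither was called.

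Summed over the 8 subunits, the level was 2679 ± 27.7 CPM with SPNS2 and 2937 ± 32.0 CPM with the empty vector (SD, n = 3 each), a difference of -8.80%. Per kilobase of the longest annotated coding transcript, the subunits ranged from 92.6 CPM per kb (TCP1) to 205 CPM per kb (CCT3) with SPNS2. With the empty vector they ranged from 102 CPM per kb (CCT4) to 224 CPM per kb (CCT3). CCT6B, a testis-enriched alternative to CCT6A, was the exception in the class and was far scarcer, at 4.749, 4.678 and 5.574 CPM with SPNS2, against 3.111, 4.213 and 3.909 CPM with the empty vector. It rose, with a log2 fold change of 0.42 ± 0.137 (SE, edgeR adjusted p = 0.0428). This call was lost with DESeq2 (adjusted p = 0.0588), with no filter on low counts (edgeR adjusted p = 0.0636), without SPNS2 replicates 1, 2 and 3 in turn (edgeR adjusted p = 0.0802, 0.0641 and 0.162) and without empty vector replicates 1 and 3 in turn (edgeR adjusted p = 0.139 and 0.0714).

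DNAJ proteins bring clients to HSP70 and trigger its ATP hydrolysis, and of 43 genes 37 were tested. Of these 6 fell (16.2%) and 5 rose (13.5%), shares near the 12.6% and 11.9% of all features tested, at a median log2 fold change of -0.02. DNAJA genes, the closest relatives of bacterial DnaJ, had 2 of 4 lower. DNAJA4 stood at 20.54, 21.29 and 22.41 CPM with SPNS2, against 26.65, 26.05 and 27.24 CPM with the empty vector, and fell by 0.32 ± 0.0485 on the log2 scale (SE, edgeR adjusted p = 0.000875). DNAJA1, a major cytosolic partner of HSPA8, stood at 171.7, 164.2 and 163.8 CPM with SPNS2, against 183.1, 186.7 and 184.3 CPM with the empty vector (log2 fold change -0.15, edgeR adjusted p = 0.00298). In neither gene did the groups overlap.

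DNAJA2, the other abundant cytosolic member, had 304.4, 304.1 and 303.2 CPM with SPNS2, against 313.3, 324.3 and 316.8 CPM with the empty vector (log2 fold change -0.07, edgeR adjusted p = 0.0686), and passed without empty vector replicate 1 (edgeR adjusted p = 0.0480). DNAJA3, the mitochondrial partner of HSPA9, had 30.75, 25.62 and 22.24 CPM with SPNS2, against 27.92, 29.63 and 30.16 CPM with the empty vector. Its SPNS2 libraries disagreed, the highest lying above every empty vector library, and the log2 fold change of -0.16 did not pass (edgeR adjusted p = 0.251). Without that library, SPNS2 replicate 1, the value was -0.29 (edgeR adjusted p = 0.0191).

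Of the 9 tested DNAJB genes 2 fell (22.2%) and 3 rose (33.3%), beside 12.6% lower and 11.9% higher among all features tested. DNAJB1 (HSP40), the classic stress-inducible J protein, stood at 123, 124.2 and 128.3 CPM with SPNS2, against 134.6, 139 and 138.2 CPM with the empty vector (log2 fold change -0.13, edgeR adjusted p = 0.00735). DNAJB11, a partner of BiP in the endoplasmic reticulum, stood at 73.61, 71.06 and 72.28 CPM with SPNS2, against 79.21, 79.46 and 78.09 CPM with the empty vector (log2 fold change -0.13, edgeR adjusted p = 0.00998). Both fell without overlap. The 3 DNAJB genes that rose were all below 10 CPM. DNAJB4, a close relative of DNAJB1, stood at 8.234, 8.943 and 9.25 CPM with SPNS2, against 6.093, 5.969 and 6.856 CPM with the empty vector (log2 fold change 0.48 ± 0.0907 SE, edgeR adjusted p = 0.00297). Its ratio to DNAJB1 was 0.0669, 0.0720 and 0.0721 with SPNS2, against 0.0453, 0.0430 and 0.0496 with the empty vector, another pair picked after its values were seen.

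DNAJB5, also a relative of DNAJB1, had 2.19, 2.419 and 2.313 CPM with SPNS2, against 1.893, 1.299 and 1.489 CPM with the empty vector (log2 fold change 0.55 ± 0.172 SE, edgeR adjusted p = 0.0377). DNAJB2, which passes clients to the proteasome, had 9.036, 8.338 and 8.924 CPM with SPNS2, against 7.026, 7.128 and 7.601 CPM with the empty vector (log2 fold change 0.27 ± 0.0808 SE, edgeR adjusted p = 0.0296). Both rose without overlap but lost the call in several fits. That of DNAJB5 was lost with DESeq2 (adjusted p = 0.0991) and with the replicate number as a block (edgeR adjusted p = 0.0584). It was also lost without SPNS2 replicates 1, 2 and 3 in turn (edgeR adjusted p = 0.0714, 0.107 and 0.0834). The same held without empty vector replicates 2 and 3 in turn (edgeR adjusted p = 0.117 and 0.0955). That of DNAJB2 was lost with DESeq2 (adjusted p = 0.0878) and with no filter on low counts (edgeR adjusted p = 0.0664). The replicate number as a block lost it too (edgeR adjusted p = 0.0596). It was also lost without SPNS2 replicates 1 and 3 in turn (edgeR adjusted p = 0.104 and 0.0980). The same held without empty vector replicates 1 and 2 in turn (edgeR adjusted p = 0.0955 and 0.103). The remaining tested DNAJB genes did not pass. DNAJB6, which restrains aggregation of polyglutamine proteins, had 117.6, 119.1 and 116.2 CPM with SPNS2, against 111.5, 112.6 and 113 CPM with the empty vector, without overlap (log2 fold change 0.07, edgeR adjusted p = 0.102). The log2 fold changes of the endoplasmic reticulum members were 0.18 for DNAJB9, 0.13 for DNAJB14 and -0.06 for DNAJB12. DNAJB14 passed without empty vector replicate 2 (edgeR adjusted p = 0.0431).

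DNAJC genes share only the J domain and serve many specialised tasks. Of 24 tested 2 rose and 2 fell (8.33% each), beside 11.9% higher and 12.6% lower among all features tested. DNAJC4 stood at 32.32, 32.43 and 31.58 CPM with SPNS2, against 25.23, 24.26 and 26.18 CPM with the empty vector, and rose with a log2 fold change of 0.35 ± 0.0444 (SE, edgeR adjusted p = 0.000291). DNAJC3, an endoplasmic reticulum partner of BiP, stood at 62.02, 62.95 and 58.82 CPM with SPNS2, against 52.68, 54.11 and 56.46 CPM with the empty vector (log2 fold change 0.17 ± 0.0383 SE, edgeR adjusted p = 0.00782). DNAJC10, the endoplasmic reticulum reductase of disulfide bonds, stood at 146.5, 140.3 and 141.2 CPM with SPNS2, against 152.2, 160.6 and 155.5 CPM with the empty vector, and fell by 0.13 ± 0.0307 on the log2 scale (SE, edgeR adjusted p = 0.0106). None of these 3 overlapped between the groups, and 2 BiP partners of the same compartment, DNAJC3 and DNAJC10, thus went opposite ways.

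DNAJC5G, a relative of the cysteine string protein DNAJC5, was barely present, with 9, 3 and 8 counts in SPNS2 libraries against 30, 17 and 26 counts in empty vector libraries. It fell by 1.82 ± 0.373 on the log2 scale (SE, edgeR adjusted p = 0.00483), the largest change of any tested member, at levels under 1 CPM. DESeq2 gave it no adjusted p, and its level keeps it out of the fit with a mean of at least 5 CPM, so its call rests on the other fits. Of the 20 DNAJC genes that did not pass, DNAJC9, a histone chaperone, came closest, with 138 ± 3.62 CPM with SPNS2 and 146 ± 0.376 CPM with the empty vector (SD, n = 3 each, log2 fold change -0.08, edgeR adjusted p = 0.0543), and passed without SPNS2 replicate 3 (edgeR adjusted p = 0.0335). DNAJC11, a mitochondrial membrane protein, was at a log2 fold change of -0.09 (edgeR adjusted p = 0.0576). DNAJC12 was at 0.10 (edgeR adjusted p = 0.166) and passed without SPNS2 replicate 2 (edgeR adjusted p = 0.0472). DNAJC7, which bridges HSP70 and HSP90, was at -0.08 (edgeR adjusted p = 0.0990). The ribosome-bound DNAJC2, partner of HSPA14, had 62.9 ± 1.80 CPM with SPNS2 and 63.1 ± 1.79 CPM with the empty vector. Over all 20 the log2 fold changes ranged from -0.63 for DNAJC6 to 0.48 for DNAJC28, both under 1 CPM. The readthrough row DNAJC25-GNG10 can share reads with DNAJC25, and neither was called.

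HSF2, a heat shock transcription factor, had 22.45, 23.3 and 24.58 CPM with SPNS2, against 20.56, 25 and 23.89 CPM with the empty vector. Its groups overlapped at a log2 fold change of 0.02 (edgeR adjusted p = 0.847). The 18 members that could not be tested were scarce or at 0. Of these, 11 had no count in any library, namely CCT8L2, DNAJB7, DNAJB8, DNAJC15, HSPB3, HSPB7, HSPB8, the readthrough HSPB2-C11orf52 and the HSPA1 genes described above. Outside the HSPA1 genes, a count of 0 allows up to 3 counts, or 0.0778 to 0.105 CPM depending on the library. The other 7, DNAJB13, DNAJC22, DNAJC5B, HSPA12B, HSPB2, HSPB6 and HSPB9, averaged at most 0.246 CPM with SPNS2 and 0.327 CPM with the empty vector.

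The members were sorted by compartment, an assignment made from general knowledge of the proteins. Over all features tested, 12.6% were lower and 11.9% higher. Of the 35 tested members of the cytosol and nucleus 16 fell (45.7%) and 4 rose (11.4%), at a median log2 fold change of -0.08. Of the 8 tested mitochondrial members 3 fell (37.5%), at a median of -0.11, namely HSPA9, HSPD1 and HSPE1. These 3 made up most of the mitochondrial sum given below, at 439, 838 and 154 CPM with SPNS2. The other 5 did not pass, and 3 of the 8 had a positive log2 fold change. Of the 12 tested members of the endoplasmic reticulum 2 fell (16.7%) and 1 rose (8.33%), shares near those of all features tested, at a median of -0.004. The summed level was 8540 ± 18.7 CPM with SPNS2 and 9201 ± 30.3 CPM with the empty vector for the cytosol and nucleus, 1575 ± 11.7 CPM with SPNS2 and 1737 ± 16.2 CPM with the empty vector for mitochondria, and 2236 ± 14.7 CPM with SPNS2 and 2257 ± 33.0 CPM with the empty vector for the endoplasmic reticulum (SD, n = 3 each). These are differences of -7.19%, -9.35% and -0.920%. The members of another or no assigned compartment went the other way. Their summed level was 278 to 288 CPM in SPNS2 libraries and 265 to 274 CPM in empty vector libraries. Of the 9 tested there 1 fell (DNAJC5G) and 1 rose (DNAJC4), at a median log2 fold change of 0.04. Whether the compartments differ from each other was not tested.

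The calls were also counted by abundance. At a split of 50 CPM in the mean over all 6 libraries, chosen after the values were seen, 19 of the 35 abundant tested members fell and 1 rose (DNAJC3), at a median log2 fold change of -0.09. Among all 3917 features tested above the same split, 22.6% fell and 13.9% rose, at a median of -0.02. Below the split 3 of 29 tested members fell and 5 rose, at a median of 0.03, beside 8.51% and 11.0% of all 9391 features tested there, at a median of 0.02. The part of abundance in the members' changes was not tested.

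**Figure D4:**
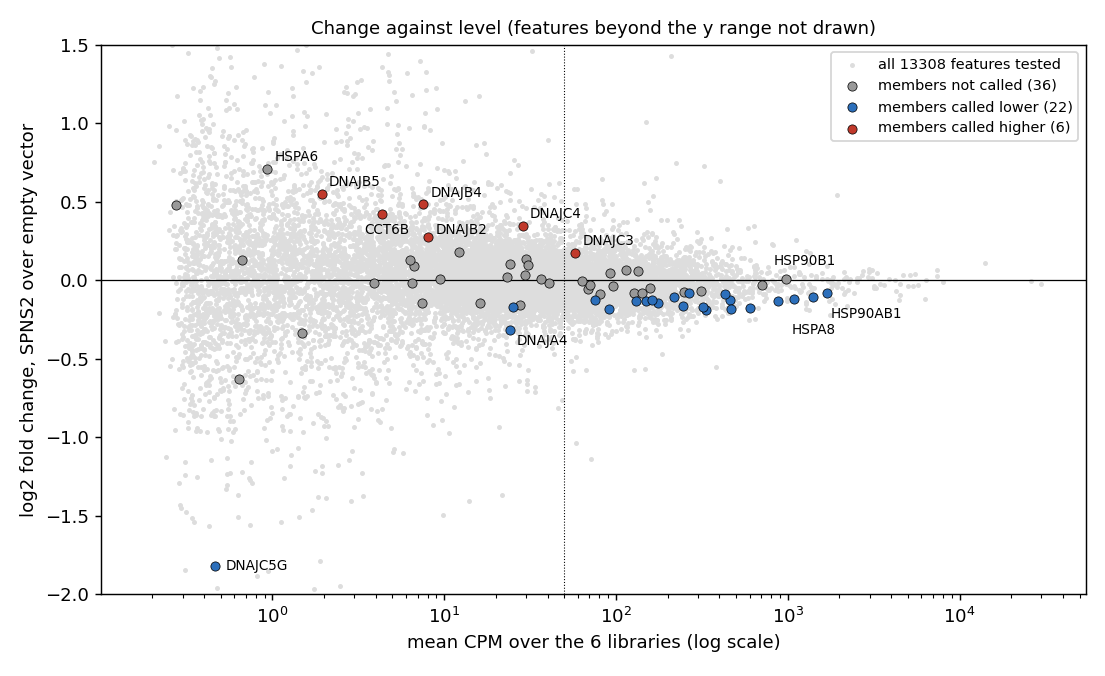
Log2 fold change (y axis, SPNS2 over empty vector) against the mean level in CPM over the 6 libraries (x axis, log scale) for all 13308 features tested (light grey) and the 64 tested members (dark grey, blue for lower, red for higher). The dotted line marks 50 CPM. Of the members right of it 19 are called lower and 1 higher, and left of it 3 lower and 5 higher.

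Genes that work with the members but lie outside the rule were counted in 6 lists. Cochaperones of HSP90 had 8 of 12 tested genes lower and none higher (none higher at an unadjusted p under 0.05 either), at a median log2 fold change of -0.13, beside 12.6% lower among all features tested. STIP1, which passes clients from HSP70 to HSP90, averaged 257 ± 3.57 CPM with SPNS2 and 301 ± 5.17 CPM with the empty vector (SD, n = 3 each, log2 fold change -0.23, edgeR adjusted p = 0.000112). NUDC averaged 155 ± 3.42 CPM with SPNS2 and 184 ± 3.22 CPM with the empty vector (SD, n = 3 each, log2 fold change -0.25, edgeR adjusted p = 0.000127). The phosphatase PPP5C and the immunophilin FKBP5 fell as well, at -0.23 (edgeR adjusted p = 0.000825) and -0.22 (edgeR adjusted p = 0.00138). The partners of HSP90 that were called thus moved in the direction of HSP90AA1 and HSP90AB1. The list was chosen with earlier results of these data known. The 8 called genes all averaged above 50 CPM, where 22.6% of all features tested were lower.

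The HSP70 exchange factors and cochaperones had 3 of 12 lower (25%), at a median log2 fold change of -0.07, beside 12.6% lower among all features tested. These were GRPEL1 (-0.17, edgeR adjusted p = 0.00531) and GRPEL2 (-0.16, edgeR adjusted p = 0.0208), the exchange factors of HSPA9 in mitochondria, and STUB1 (-0.13, edgeR adjusted p = 0.0140), a ubiquitin ligase that acts on HSP70 clients. Over the fits with 1 library left out, between 1 and 4 genes of this list were lower. STUB1 lost its call without SPNS2 replicates 1 and 2 in turn (edgeR adjusted p = 0.0561 and 0.0581), and GRPEL2 without SPNS2 replicates 1 and 3 in turn (edgeR adjusted p = 0.0822 and 0.0585) and without empty vector replicate 2 (edgeR adjusted p = 0.0618). Mitochondrial proteases and chaperones outside the rule had 6 of 9 lower (66.7%), beside the same 12.6%, at a median of -0.15. Apart from CLPB, at a mean of 46.0 CPM, the 6 averaged above 50 CPM, where 22.6% of all features tested were lower. LONP1, the main matrix protease, averaged 234 ± 5.78 CPM with SPNS2 and 292 ± 4.50 CPM with the empty vector (SD, n = 3 each, log2 fold change -0.32, edgeR adjusted p = 1.94e-05). TRAP1, the mitochondrial HSP90, averaged 214 ± 1.23 CPM with SPNS2 and 244 ± 8.01 CPM with the empty vector (SD, n = 3 each, log2 fold change -0.19, edgeR adjusted p = 0.000870). TIMM44, which ties HSPA9 to the import channel, was at -0.15 (edgeR adjusted p = 0.00959). CLPP, a further matrix protease, was at -0.21 (edgeR adjusted p = 0.0116), and at 0.0537 without SPNS2 replicate 3.

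Endoplasmic reticulum folding and unfolded protein response genes outside the rule had 3 of 19 lower (15.8%) and 1 higher (5.26%), at a median log2 fold change of 0.02. Over all features tested, 12.6% were lower and 11.9% higher. HERPUD1, a part of the pathway that removes misfolded proteins, was at -0.26 (edgeR adjusted p = 0.00154), SDF2L1, a partner of DNAJB11, at -0.17 (edgeR adjusted p = 0.00535) and the oxidase ERO1A at -0.15 (edgeR adjusted p = 0.0157). CALR, the calcium-binding lectin chaperone, rose, with 3041 ± 27.4 CPM with SPNS2 and 2898 ± 36.1 CPM with the empty vector (SD, n = 3 each, log2 fold change 0.07, edgeR adjusted p = 0.0175). The ERO1A call was lost without SPNS2 replicate 3 and without empty vector replicate 2 in turn (edgeR adjusted p = 0.0604 and 0.0646), and that of CALR with no filter on low counts (edgeR adjusted p = 0.104) and without SPNS2 replicates 1 and 2 and empty vector replicate 3 in turn (edgeR adjusted p = 0.0580, 0.0654 and 0.0573).

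Prefoldin and the phosducin-like helpers, which deliver actin and tubulin to CCT, had 1 of 9 lower, PFDN2 (log2 fold change -0.19, edgeR adjusted p = 0.00143), at a median of -0.01. That share, 11.1%, was near the 12.6% lower among all features tested. Other stress genes linked to HSF1 had 2 of 8 lower (25%) and 1 higher (12.5%), at a median of -0.01, beside 12.6% and 11.9% of all features tested. SERPINH1, the collagen chaperone HSP47, averaged 136 ± 0.717 CPM with SPNS2 and 160 ± 1.42 CPM with the empty vector (SD, n = 3 each, log2 fold change -0.24, edgeR adjusted p = 8.85e-05). VCP, an ATPase that extracts proteins for degradation, was at -0.10 (edgeR adjusted p = 0.0273), and SQSTM1, an autophagy receptor, rose at 0.19 (edgeR adjusted p = 0.00531). The VCP call was lost with the replicate number as a block (edgeR adjusted p = 0.0562). It was also lost without SPNS2 replicates 1 and 3 in turn (edgeR adjusted p = 0.104 and 0.0656). The same held without empty vector replicates 1 and 2 in turn (edgeR adjusted p = 0.0696 and 0.0622).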

How the data were processed

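Poly(A) RNA from 6 ME-1 libraries was sequenced, and the titles put 3 libraries in the SPNS2 group and 3 in the empty vector group. Per the labels' protocols, RNA was extracted with a QIAGEN kit and libraries were made with the TruSeq Stranded mRNA LT kit. The authors deposited estimated counts for each gene. Salmon is the quantification tool listed in the submitters' processing notes; the sources used here do not state its version, the index, the genome build or how transcripts were summed. All deposited values were whole numbers, so they were used without rounding.

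Ensembl IDs were matched to current symbols by a table of gene names (34329 of 34370) or GENCODE 29 (40 more), and protein-coding status came from GENCODE 29. HSPB11, now named IFT25, is not a member. Features passed filterByExpr in edgeR 4.0.16 (R 4.3.3) at a minimum count of 10 and a minimum total of 15. TMM factors ran from 0.993 to 1.01. The quasi-likelihood F test had group as its single term, and the procedure was first tested on simulated data. P-values were adjusted over all features by Benjamini-Hochberg. SE was computed as the size of the log2 fold change divided by the root of its F statistic, and the biological coefficient of variation was 4.32%. Replicates differed by more than sampling noise (chi-square per degree of freedom 2.89 to 5.85), so none was treated as a duplicate. The floor of 3 counts covers counting error only.

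The members and lists were chosen with earlier results of these data known. Every tested member outside the DNAJ class is given library by library. Among called DNAJ genes with a mean of at least 1 CPM, those named are the 5 with the greatest increase, the 5 with the greatest decrease and the 5 of smallest p, and in each related list the called genes among the 4 of smallest p. Any other named gene was chosen after its values were seen. Alternatives were DESeq2 size factors, the DESeq2 test (1.42.0), limma voom (3.58.1), no filter, a mean of at least 5 CPM, the replicate number as a block, and each library left out.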

Additional observations from a re-analysis of the deposited data

How the results depend on the processing

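Of the 28 members called, 28 kept their direction and 21 kept their call under every alternative that gave them an adjusted p. DNAJC5G, one of the 21, had none from DESeq2, and DNAJC5G, CCT6B and DNAJB5 fall below a mean of 5 CPM. The median log2 fold change of all features moved by at most 0.003 under any of them. DESeq2 called 3 members higher, 0 CCT genes higher, 1 DNAJB gene higher, 1 DNAJC gene lower, 1 gene of the cytosol and nucleus higher and 0 genes of no assigned compartment lower. Without the filter, 0 CCT genes and 2 genes of the cytosol and nucleus were higher, 4 DNAJC genes were lower, and 0 genes of the endoplasmic reticulum list were higher. With a mean of at least 5 CPM, 0 CCT genes, 2 genes of the cytosol and nucleus, 2 members of the endoplasmic reticulum and 2 genes of its list were higher, while 1 DNAJC gene and 0 genes of no assigned compartment were lower. The scarce members leave the test at that filter. The cause of the other shifts was not tested.

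The replicate numbers did not pair the libraries: deviations of same-numbered libraries correlated at 0.0312, 0.0375 and -0.0193, and not every library correlated best with its own number. With the replicate number as a block, 1301 features were called higher and 1422 lower. Among members 4 were higher and 21 lower, with 1 DNAJB gene and 2 genes of the cytosol and nucleus higher, and 1 gene of the HSF1-linked list lower under the block.

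With each library left out in turn, 3 to 5 members were called higher and 20 to 23 lower. Calls ranged from 0 to 1 for higher CCT genes, from 1 to 2 for higher DNAJB genes, from 0 to 1 for higher HSP70 and HSP110 genes, from 0 to 1 for lower small heat shock proteins, from 1 to 3 for higher genes of the cytosol and nucleus and from 1 to 2 for higher members of the endoplasmic reticulum. In the lists they ranged from 0 to 1 (endoplasmic reticulum, higher), from 1 to 4 (HSP70 exchange factors, lower), from 1 to 2 (HSF1-linked, lower), and for prefoldin and its relatives from 0 to 1 higher and from 1 to 2 lower. Over all the alternatives, not only the fits with a library left out, 11 of the 64 tested members, none of them called, changed direction. Their log2 fold changes ranged from -0.044 to 0.019 for DNAJC1, from -0.087 to 0.053 for DNAJC17, from -0.033 to 0.085 for DNAJC19, from -0.022 to 0.019 for DNAJC2 (0.0039 at a mean of at least 5 CPM), from -0.24 to 0.22 for DNAJC25-GNG10, from -0.52 to 1.34 for DNAJC28, from -0.099 to 0.095 for DNAJC30, from -0.059 to 0.081 for HSF2, from -0.043 to 0.28 for HSPA12A, from -0.048 to 0.072 for HSPA13, and from -0.0011 to 0.021 for HSP90B1. Depth limits the members under 1 CPM, which rest on fewer than 50 counts per library.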
